A study of Mus musculus with 6 samples.

Results

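The genes described here encode the cytoplasmic machinery that sorts cargo from endosomes to melanosomes and lysosomes. They comprise the 3 BLOC complexes, the adaptors AP-1 and AP-3, the HOPS tethering complex, the retromer core, and the single proteins LYST and VPS33B. The rule for members names genes by function and uses no measured value, though it was written with earlier results of these data known: 35 listed symbols, each matched to 1 row of a count table of 35275 gene IDs. All 35 were found and passed the filter on low counts, among 13602 tested genes. RNA-seq was done on Melb-a, an immortal melanoblast line of mouse skin on the C57BL/6J background. All cells were moved from growth medium to DMEM with 10% serum, 2 nM of the melanocortin analog NDP-alpha MSH and 200 nM of phorbol-myristate-acetate, a protein kinase C activator. For 48 h this medium also held the vehicle DMSO (3 samples) or 10 µM iBRD9 (3 samples), an inhibitor of the bromodomain of BRD9, which is a subunit of a SWI/SNF chromatin remodeling complex. A single line, dose and time were used, so the p-values measure the spread between samples of 1 line, and lower RNA per cell cannot be told apart from fewer cells of a given state.

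Melanosomes are built from endosomes, and their enzymes and transporters arrive in tubules and vesicles loaded by adaptors. AP-3 and AP-1 bind sorting signals in the tails of cargo such as tyrosinase, BLOC-1 and BLOC-2 form and direct the endosomal tubules, and BLOC-3 is the exchange factor that activates RAB32 and RAB38 on the target membrane. HOPS tethers late endosomes to lysosomes before fusion, and retromer returns receptors from endosomes. Loss of many of these subunits dilutes coat color in mice and, for the BLOC and AP-3 genes, causes Hermansky-Pudlak syndrome in people.

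The libraries held 22846391 to 29680952 counts. DMSO replicate 1 differed more from DMSO replicates 2 and 3 than those did from each other. Its median absolute log2 difference from them over all tested genes was 0.214 and 0.239, against 0.0804 between replicates 2 and 3 and 0.0686 to 0.0958 among the iBRD9 libraries. Values with and without it are therefore given below. The library was singled out from these same data. Without it the DMSO spread rests on replicates 2 and 3, which lay close together. The much smaller p-values of that fit leave out the spread that DMSO replicate 1 adds, and are not stronger evidence. Markers of the melanocyte lineage (7 of 7 tested) summed to 15291 to 17374 CPM with DMSO and 15005 to 16529 CPM with iBRD9, a sum in which Sox10 (-0.92), Tyrp1 (-0.66) and Mlana (-0.62) fell, Dct (0.31) rose and Mitf, Pmel and Kit did not pass. Keratinocyte markers summed to 3.496 to 4.35 CPM over all libraries (Krt1 and Krt5 at 0 counts in every one). Macrophage markers summed to 5.44 to 7.76 CPM over all libraries (Ptprc at 0). In that sum Csf1r rose from 0.279 ± 0.154 to 1.70 ± 0.187 CPM and Cd68 fell from 6.78 ± 0.962 to 4.19 ± 0.389 CPM. Endothelial markers summed to 1.46 to 1.601 CPM with DMSO and 4.41 to 6.16 CPM with iBRD9. The sum of 5 fibroblast markers was 75.2 to 99.6 CPM with DMSO and 131 to 145 CPM with iBRD9: Dcn rose from 51.2 ± 7.37 to 120.4 ± 7.09 CPM and Col1a1 from 0.679 ± 0.0336 to 3.51 ± 0.877 CPM, Col1a2 fell from 29.5 ± 6.02 to 7.63 ± 0.699 CPM, and Pdgfra and Lum did not pass. The sum of 5 Schwann cell markers (4 tested, all of which fell) was 259.8 to 356 CPM with DMSO and 65.8 to 70.4 CPM with iBRD9. The part of these shifts in the values below was not tested.

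More of the sorting genes fell than rose with iBRD9, and most changes were small. Of the 35 members, 17 fell (48.6%), 7 rose (20%) and 11 had an adjusted p of 0.05 or more, where 30.9% of all tested genes fell and 29.8% rose. Called in either direction were 68.6% of members, near the 60.7% of all tested genes. Levels are given in CPM, read counts scaled to library size with TMM factors. Among members the median log2 fold change was -0.15, against 0.0071 over all tested genes. The members were also the more abundant, with a median mean log2 CPM of 6.32 against 4.79 over all tested genes. Of the 35, 26 lay above that all-gene median. The shares of all tested genes given here were not matched for level, and the part of level in these contrasts was not tested. With all libraries Hps4 was the only 1 of the 35 members called at a 2-fold change or more, against 2022 of the 13602 tested genes. Called with a log2 change of at least 0.5 in size were 8 of the 35 members, against 36.1% of all tested genes. Of these 8, Hps4, Vps39, Bloc1s5 and Vps33a fell, and Ap3m2, Vps16, Vps33b and Snapin rose. The DMSO and iBRD9 libraries did not overlap in 28 of the 35 members, against 9243 of the 13602 tested genes (68.0%). Each complex of several subunits except retromer held both a gene that rose and a gene that fell, BLOC-2 only through the Hps6 call, which was lost in 10 of 13 alternatives, library size alone among them.

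**Figure D1:**
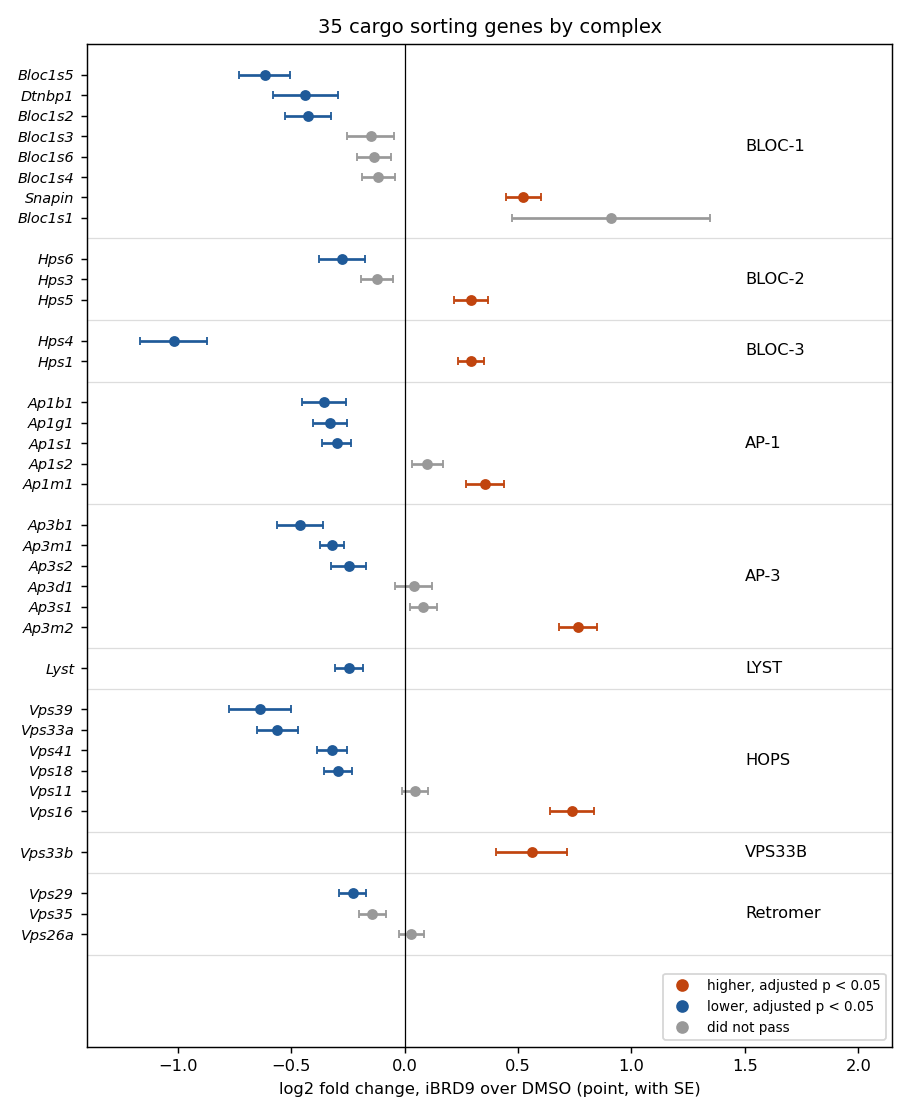
Log2 fold change (iBRD9 over DMSO) with its standard error for the 35 members, grouped by complex and colored by the call at an adjusted p under 0.05. Of the members, 17 lie left of 0 and 7 right of 0 as calls, Hps4 lies farthest left at -1.02, and Bloc1s1, at the right, has a wide error and did not pass.

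Promoter windows from RefSeq (build GRCm38.p6, 250 bases before to 50 after the start) were matched for 26 of the 35 members, in 28 windows. Those without an entry were Bloc1s6, Snapin, Ap1m1, Ap3m2, Ap3s1, Vps11, Vps39, Vps33b and Vps35. The E-box CACGTG is the core of the sites that the MITF and TFE transcription factors, regulators of pigment and lysosome genes, are known to bind. It reads the same on both strands. It was present in 10 of the 28 member windows (35.7%), against 7.15% of all 32851 windows and 9.73% of the windows of tested genes. Vps26a counts there with 2 windows. By gene, 9 of the 26 members (34.6%) held it, against 11.6% of tested genes with a window. The M-box core CATGTG, searched on both strands, was in 4 member windows (14.3%, against 14.2% of all windows and 8.97% of those of tested genes), and the cAMP response element TGACGTCA in 1 (3.57%, against 1.79% and 3.06%), that of Hps4. No 2 matches of different motifs shared bases. TCACGTGA, an extended form chosen after the sequences were seen, was in 7 member windows (25.0%, against 0.974% of all windows and 1.77% of those of tested genes). The 30 bases around a match are shown because the members with and without the E-box differ in the calls below; capitals mark the matched letters.

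The stretches run 5′ to 3′ along the gene.
Hps1, chr19:42779969-42779998, minus strand: cccggtCATGTGgctgagtCACGTGtccta
Hps3, chr3:20035308-20035337, minus strand: ggtcgcagcgctCACGTGatccggagcagc
Hps5, chr7:46796091-46796120, minus strand: gggcgctgagggCACGTGaccggaaacgcc
Hps5, chr7:46796056-46796085, minus strand: gggcctccggagCACGTGaccaccaccgcg
Vps16, chr2:130424290-130424319, plus strand: aggcggcctcgtCACGTGaccccgaagggc
Vps33a, chr5:123573018-123573047, minus strand: ggatCACGTGaacgtcccgtCACGTGacgc
Bloc1s1, chr10:128923518-128923547, minus strand: gcgtCACGTGatactgcgatCACGTGacgc
Bloc1s3, chr7:19508361-19508390, minus strand: cataactcggctCACGTGacgctgcgagag
Vps26a, chr10:62486970-62486999, minus strand: cgcacggctcgtCACGTGacaactagctct
Ap1s2, chrX:163908890-163908919, plus strand: ccgcttccgggtCACGTGgccagacttccg
Hps4, chr5:112343017-112343046, plus strand: ccgccatgctcTGACGTCAgcagagtgcgc

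In the GENCODE M21 annotation of the same build, the Hps1, Hps3, Vps33a, Bloc1s1 and Bloc1s3 stretches and the second one of Hps5 lie at least in part in an exon with 5′ UTR of the gene itself (that of Hps1 also in an exon of Gm16244). The first Hps5 stretch overlaps an exon of the neighbor Gtf2h1, the Vps16 stretch an exon of Pced1a and the Hps4 stretch an exon of Srrd, and those of Vps26a and Ap1s2 lie in no annotated gene. Vps26a has 2 further matches that are not shown. Vps33a and Bloc1s1 each carry a pair of E-boxes within the 30 bases shown, and Hps1 an E-box beside an M-box core. Of the 9 members with the E-box, Hps1, Hps5 and Vps16 rose, Vps33a fell and 5 did not pass. Of the 17 matched members without it, 15 fell and 2 did not pass. The 4 other genes that rose, Snapin, Ap1m1, Ap3m2 and Vps33b, are among those without an entry. Across all tested genes with a window the motif did not separate the calls in this way: 27.4% rose and 33.6% fell of 1183 genes with the E-box, and 30.1% rose and 32.2% fell of 8990 without it. These are counts of letters in a window, not of bound sites, and the difference among members was not tested.

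The 2 subunits of BLOC-3 moved in opposite directions. Hps4 (ENSMUSG00000042328), mutated in light ear mice, had the largest change among the called members. It stood at 73.2, 106 and 112 CPM in DMSO replicates 1, 2 and 3 and 51.6, 46.9 and 45.1 CPM in the iBRD9 replicates. All iBRD9 libraries lay below all DMSO libraries, and DMSO replicate 1 lay between DMSO replicates 2 and 3 and the iBRD9 group. The level fell to 0.494 of that with DMSO (log2 fold change -1.02, SE 0.15, adjusted p = 0.000550), and the log2 fold change was -1.19, adjusted p = 3.33e-15 without DMSO replicate 1. Hps1 (ENSMUSG00000025188), mutated in pale ear mice, rose. Its level was 48.4, 46.9 and 50.2 CPM with DMSO and 60.2, 58.5 and 59.3 CPM with iBRD9, with no overlap (log2 fold change 0.29, SE 0.058, adjusted p = 0.00278), and DMSO replicate 1 was inside the range of the other DMSO libraries. Within each library, the ratio of Hps4 to Hps1 counts was 1.51, 2.25 and 2.23 with DMSO and 0.857, 0.802 and 0.760 with iBRD9, so that Hps4 had more counts than Hps1 in every DMSO library and fewer in every iBRD9 library. Scaled to exon length (GENCODE M21, an older build than that of the counts), Hps4 was at 24.5 ± 5.26 and Hps1 at 8.28 ± 0.283 CPM per kb with DMSO, and at 12.1 ± 0.844 and 10.1 ± 0.141 CPM per kb with iBRD9 (SD, n = 3). The target GTPases of BLOC-3 fell as well, Rab38 from 331 ± 94.3 to 75.6 ± 1.92 CPM (-2.13) and Rab32 from 321 ± 38.6 to 90.2 ± 3.94 CPM (-1.83).

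**Figure D2:**
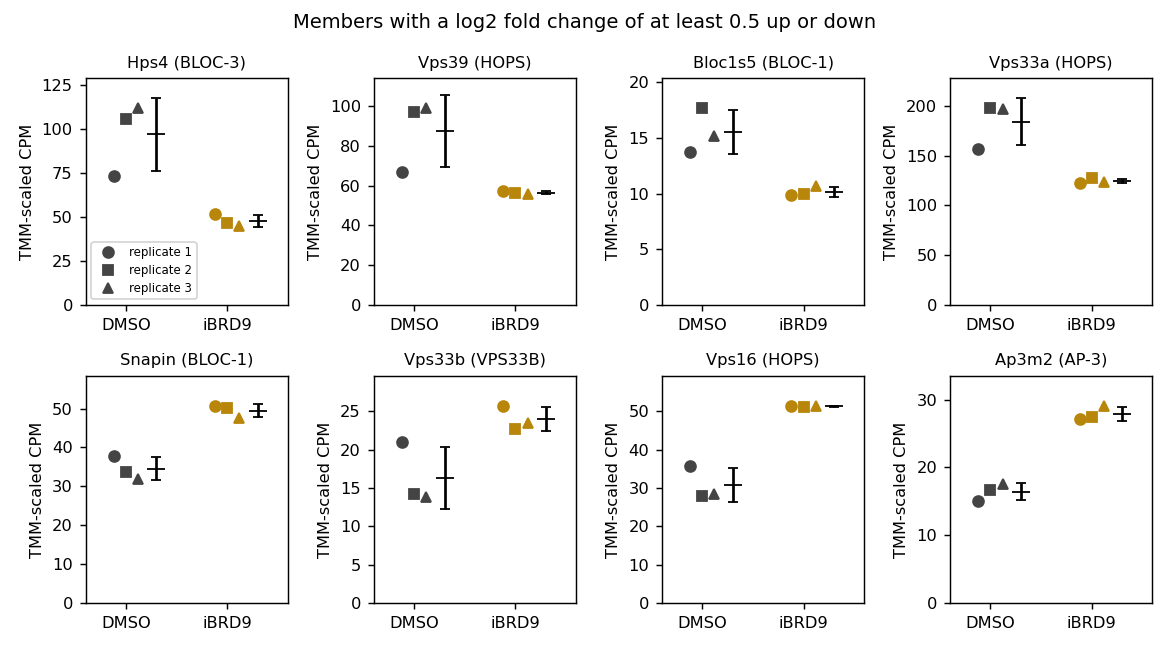
TMM-scaled CPM of the 8 members called with a log2 fold change of at least 0.5 in size, in each of 3 DMSO and 3 iBRD9 libraries (points, shaped by replicate number), with the mean and SD beside them. The groups do not overlap in any panel, and in 7 of them, all but Ap3m2, DMSO replicate 1 is the DMSO library nearest to iBRD9.

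BLOC-1 is an octamer that shapes the recycling endosome tubules through which melanosome cargo leaves. Of its 8 subunits 3 fell, 1 rose and 4 did not pass (median -0.14). Bloc1s5 (ENSMUSG00000038982), the muted gene, fell the most. Its values were 13.7, 17.7 and 15.2 CPM in DMSO replicates 1, 2 and 3 and 9.87, 9.92 and 10.6 CPM in the iBRD9 replicates (log2 fold change -0.62, SE 0.11, adjusted p = 0.00176), without overlap. Bloc1s2 had 26.1, 31.9 and 32.6 CPM with DMSO and 23.1, 23.5 and 20.8 CPM with iBRD9 (log2 fold change -0.43, SE 0.10, adjusted p = 0.00674) and also did not overlap. Dtnbp1, the dysbindin gene mutated in sandy mice, fell as well, but DMSO replicate 1 lay within the iBRD9 range: 55.0, 80.8 and 83.9 CPM in DMSO replicates 1, 2 and 3 and 52.6, 53.6 and 56.1 CPM in the iBRD9 replicates (log2 fold change -0.44, SE 0.14, adjusted p = 0.0269). Its call was made with all libraries and without DMSO replicate 1 (-0.62, adjusted p = 8.13e-11), and was lost without any other library (adjusted p = 0.0614 without iBRD9 replicate 3, the lowest, to 0.0935 without iBRD9 replicate 1), with library size alone (-0.33, adjusted p = 0.0572) and without a filter (adjusted p = 0.0613).

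Snapin (ENSMUSG00000001018), which BLOC-1 shares with the lysosome-positioning complex BORC and which binds SNARE proteins, rose. It stood at 37.7, 33.7 and 31.9 CPM with DMSO and 50.7, 50.2 and 47.6 CPM with iBRD9, all iBRD9 libraries being higher (log2 fold change 0.52, SE 0.077, adjusted p = 0.000612). In GENCODE M21, 15.5% of its exon bases overlap exons of Ilf2 on the other strand. Ilf2 had 80.3 ± 6.999 CPM with DMSO and 113 ± 5.42 CPM with iBRD9 (0.49). No strand setting is known for the counting, so it is not known how reads in the shared bases were assigned. The part of Ilf2 reads in the Snapin value was not tested. The other subunits sat close to their DMSO level: Bloc1s6, the pallid gene, at 23.8 ± 1.06 CPM with DMSO and 21.7 ± 0.750 CPM with iBRD9 (-0.13, adjusted p = 0.144), Bloc1s3 at 9.13 ± 0.564 CPM with DMSO and 8.23 ± 0.391 CPM with iBRD9 (-0.15, adjusted p = 0.230) and Bloc1s4, the cappuccino gene, at 26.3 ± 1.43 CPM with DMSO and 24.3 ± 0.427 CPM with iBRD9 (-0.12, adjusted p = 0.191). Bloc1s4 passed without DMSO replicate 1 (-0.17, adjusted p = 0.0313).

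Bloc1s1 was the exception in level. It had 8, 13 and 3 counts in the DMSO libraries and 20, 18 and 12 in the iBRD9 libraries, or 0.255 and 0.485 CPM per kb, while the other BLOC-1 subunits were at 2.41 (Bloc1s5) to 20.7 (Bloc1s4) CPM per kb with DMSO. Its log2 fold change of 0.91 (SE 0.44) did not pass (adjusted p = 0.101), and passed without DMSO replicate 2 (1.39, adjusted p = 0.0466). In GENCODE M21, 55.9% of the exon bases of Bloc1s1 are also exon bases of Rdh5 on the same strand, which itself had 3.52 ± 0.940 CPM with DMSO and 2.89 ± 0.428 CPM with iBRD9. The counts of Bloc1s1 are uncertain for that reason.

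BLOC-2 acts after BLOC-1 and steers cargo tubules to melanosomes. Its 3 subunits parted: Hps5, the ruby-eye 2 gene, rose, Hps6 fell and Hps3 did not pass. Hps5 (ENSMUSG00000014418) had 77.2, 67.3 and 68.2 CPM with DMSO and 90.0, 88.0 and 82.3 CPM with iBRD9, with all iBRD9 libraries higher (log2 fold change 0.29, SE 0.073, adjusted p = 0.00847). Hps6, the ruby-eye gene, had 14.0, 14.0 and 14.2 CPM with DMSO and 12.4, 12.2 and 10.2 CPM with iBRD9; the DMSO libraries were close together and iBRD9 replicate 3 was the lowest. Its call (log2 fold change -0.27, SE 0.10, adjusted p = 0.0431) was the weakest of all members and was lost in 10 of 13 alternatives, with adjusted p from 0.0524 without iBRD9 replicate 1 to 0.181 with library size alone (-0.17). Without iBRD9 replicate 3 its log2 fold change was -0.19, adjusted p = 0.144, without iBRD9 replicate 2 -0.31, adjusted p = 0.0670, without DMSO replicate 2 -0.29, adjusted p = 0.0904 and without DMSO replicate 3 -0.27, adjusted p = 0.0895. Hps3, the cocoa gene, was at 135 ± 10.5 CPM with DMSO and 124 ± 5.06 CPM with iBRD9 (-0.12, adjusted p = 0.161), and its groups overlapped.

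AP-3 carries tyrosinase and lysosomal membrane proteins from early endosomes. Of its 6 genes 3 fell, 1 rose and 2 did not pass. The large subunit gene Ap3b1 (ENSMUSG00000021686), mutated in pearl mice and in human Hermansky-Pudlak syndrome, fell from 201 ± 29.96 to 146 ± 1.74 CPM (log2 fold change -0.46, SE 0.10, adjusted p = 0.00445), and did so by 0.59 on the log2 scale without DMSO replicate 1. The other large subunit gene, Ap3d1, mutated in mocha mice, was at 383 ± 41.9 CPM with DMSO and 394 ± 9.45 CPM with iBRD9 (0.040, adjusted p = 0.685), with overlapping groups; its value changed sign without DMSO replicate 1 (-0.055, adjusted p = 0.244).

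The 2 medium subunit genes of AP-3 moved apart. Ap3m2 (ENSMUSG00000031539), whose protein is best known from the neuronal form of the adaptor, had 15.1, 16.7 and 17.5 CPM with DMSO and 27.1, 27.5 and 29.1 CPM with iBRD9. All iBRD9 libraries lay well above all DMSO libraries (log2 fold change 0.76, SE 0.084, adjusted p = 0.000135). Ap3m1 (ENSMUSG00000021824), the widely expressed form, had 231, 233 and 217 CPM with DMSO and 179, 183 and 185 CPM with iBRD9, and every iBRD9 library was lower (log2 fold change -0.32, SE 0.053, adjusted p = 0.00115). Ap3m1 remained the more abundant, at 32.4 ± 1.22 and 26.0 ± 0.396 CPM per kb with DMSO and iBRD9, against 3.63 ± 0.278 and 6.16 ± 0.237 for Ap3m2. In GENCODE M21, 29.8% of Ap3m1 exon bases overlap exons of Vcl on the other strand; Vcl rose from 169.9 ± 21.1 to 247 ± 2.49 CPM, and its part in the Ap3m1 value was not tested. The neuronal large subunit gene Ap3b2, which is not among the 35, had 8.96 ± 0.404 CPM with DMSO and 7.70 ± 1.097 CPM with iBRD9 (-0.22, adjusted p = 0.168).

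Of the small subunit genes of AP-3, Ap3s1 had 42.4, 41.0 and 42.5 CPM with DMSO and 43.8, 46.2 and 43.4 CPM with iBRD9 and did not pass (0.083, adjusted p = 0.260), except with library size alone (0.19, adjusted p = 0.0284). Ap3s2 had 83.4, 99.7 and 97.6 CPM in DMSO replicates 1, 2 and 3 and 77.8, 78.9 and 80.1 CPM in the iBRD9 replicates and fell (log2 fold change -0.25, SE 0.077, adjusted p = 0.0220), with no overlap and with DMSO replicate 1 nearest to iBRD9. The Ap3s2 call was lost without each library other than DMSO replicate 1: its log2 fold change was -0.21, adjusted p = 0.0852 without DMSO replicate 2, -0.22, adjusted p = 0.0606 without DMSO replicate 3, -0.24, adjusted p = 0.0765 without iBRD9 replicate 1, -0.25, adjusted p = 0.0700 without iBRD9 replicate 2 and -0.26, adjusted p = 0.0599 without iBRD9 replicate 3. It was also lost with library size alone (-0.14, adjusted p = 0.0982).

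AP-1 sorts cargo at the trans-Golgi network and recycling endosomes, and in melanocytes acts with the kinesin KIF13A on tubules that feed melanosomes. Of its 5 genes 3 fell, 1 rose and 1 did not pass (median -0.30). The large subunit genes moved together: Ap1b1 (ENSMUSG00000009090) had 128, 166 and 166 CPM in DMSO replicates 1, 2 and 3 and 121, 119.7 and 119 CPM in the iBRD9 replicates (log2 fold change -0.36, SE 0.10, adjusted p = 0.0134), and Ap1g1 fell from 255 ± 24.8 to 203 ± 3.74 CPM (-0.33, adjusted p = 0.00539). Neither overlapped between groups, and DMSO replicate 1 was the lowest DMSO library in both. Leaving out DMSO replicate 2 ended the Ap1b1 call (-0.30, adjusted p = 0.0516). The medium subunit gene Ap1m1 (ENSMUSG00000003033) rose, from 107 ± 12.9 to 137 ± 1.44 CPM (log2 fold change 0.35, SE 0.084, adjusted p = 0.00654), with DMSO replicate 1 at 122 CPM the highest DMSO library.

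The small subunit gene Ap1s1 had 116, 125 and 117 CPM with DMSO and 90.9, 99.3 and 101 CPM with iBRD9 and fell (log2 fold change -0.30, SE 0.064, adjusted p = 0.00385). Its X-linked paralog Ap1s2 had 137, 119 and 119 CPM with DMSO and 138, 132 and 133 CPM with iBRD9. DMSO replicate 1 lay within the iBRD9 range, and the gene did not pass with all libraries (0.10, adjusted p = 0.233) but did without DMSO replicate 1 (0.16, adjusted p = 0.00184) and with library size alone (0.20, adjusted p = 0.0487). Ap1s2 and Ap1s1 had similar counts with DMSO, at ratios of 1.18, 0.959 and 1.02, and more Ap1s2 counts with iBRD9, at 1.52, 1.33 and 1.31. Per exon length Ap1s1 was still the higher, at 44.2 ± 2.47 against 27.1 ± 0.619 CPM per kb with iBRD9.

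HOPS brings late endosomes and autophagosomes to lysosomes, with VPS39 and VPS41 at its RAB-facing ends, VPS11, VPS16 and VPS18 in its scaffold, and VPS33A as the SNARE-binding subunit. Of its 6 genes 4 fell, 1 rose and 1 did not pass (median -0.31). Both end subunits fell. Vps39 (ENSMUSG00000027291) had 66.6, 96.9 and 98.9 CPM in DMSO replicates 1, 2 and 3 and 57.0, 56.3 and 55.6 CPM in the iBRD9 replicates (log2 fold change -0.64, SE 0.14, adjusted p = 0.00405), with no overlap but with DMSO replicate 1 closer to the iBRD9 libraries than to its own group; without it the log2 fold change was -0.81, adjusted p = 2.05e-13. Vps41 fell from 117 ± 8.44 to 93.9 ± 1.77 CPM (-0.32, adjusted p = 0.00344).

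Vps33a (ENSMUSG00000029434), mutated in buff mice, had 156, 198 and 197 CPM with DMSO and 123, 127 and 124 CPM with iBRD9. All DMSO libraries were higher (log2 fold change -0.56, SE 0.091, adjusted p = 0.000972). In the scaffold, Vps18 fell from 87.6 ± 4.51 to 71.5 ± 2.402 CPM (-0.29, adjusted p = 0.00409), Vps11 was at 95.0 ± 3.95 CPM with DMSO and 98.1 ± 0.627 CPM with iBRD9 (0.046, adjusted p = 0.498), and Vps16 rose. Vps16 (ENSMUSG00000027411) had 35.8, 28.0 and 28.5 CPM with DMSO and 51.5, 51.2 and 51.3 CPM with iBRD9, the iBRD9 libraries being nearly equal and all higher (log2 fold change 0.74, SE 0.10, adjusted p = 0.000338). Its exons overlap those of Pced1a on the other strand over 2.92% of their bases, and Pced1a had 12.2 ± 0.127 CPM with DMSO and 19.1 ± 1.47 CPM with iBRD9 (0.65). Per exon length only Vps39 and Vps16 changed their order among the HOPS genes, and with DMSO the spreads of these genes overlapped. With DMSO, Vps33a led at 38.4 ± 4.93 CPM per kb, Vps11 (19.2 ± 0.801), Vps18 (18.3 ± 0.942) and Vps41 (17.4 ± 1.25) followed within the spread of their neighbors, and Vps39 (10.2 ± 2.105) and Vps16 (8.26 ± 1.17) were lowest. With iBRD9, Vps16 was at 13.8 ± 0.0467 CPM per kb, near Vps41 (13.9 ± 0.264) and Vps18 (14.9 ± 0.502), below Vps33a (26.0 ± 0.489) and Vps11 (19.9 ± 0.127), and Vps39 was lowest at 6.54 ± 0.0863.

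VPS33B, the paralog of VPS33A, is not a HOPS subunit and works in a separate complex with VIPAS39. Vps33b (ENSMUSG00000030534) had 20.95, 14.2 and 13.8 CPM in DMSO replicates 1, 2 and 3 and 25.7, 22.7 and 23.5 CPM in the iBRD9 replicates. DMSO replicate 1 lay between the other DMSO libraries and the iBRD9 libraries, with no overlap (log2 fold change 0.56, SE 0.16, adjusted p = 0.0137), and the log2 fold change was 0.77, adjusted p = 1.56e-08 without it. The call was lost when either DMSO replicate 2 (0.46, adjusted p = 0.0543) or iBRD9 replicate 1 was left out (0.50, adjusted p = 0.0609). Its partner went the other way: Vipas39 fell from 64.1 ± 5.88 to 44.7 ± 1.28 CPM (-0.52, adjusted p = 0.000654).

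LYST is the giant BEACH-domain protein mutated in beige mice and Chediak-Higashi syndrome, where lysosomes and melanosomes are enlarged. Lyst (ENSMUSG00000019726) had 159, 151 and 149 CPM with DMSO and 136, 129 and 122 CPM with iBRD9, with every iBRD9 library lower (log2 fold change -0.25, SE 0.061, adjusted p = 0.00778); scaling by library size alone ended the call (-0.14, adjusted p = 0.0875). Of the retromer core genes Vps29 alone passed with all libraries. Vps35, the large scaffold subunit, was at 419.8 ± 20.05 CPM with DMSO and 381 ± 9.61 CPM with iBRD9 (-0.14, adjusted p = 0.0622) and passed in 1 of 13 alternatives, without DMSO replicate 1 (-0.19, adjusted p = 0.000305). Vps29 (ENSMUSG00000029462) had 106, 113 and 119 CPM with DMSO and 95.0, 98.9 and 94.5 CPM with iBRD9 and fell (log2 fold change -0.23, SE 0.061, adjusted p = 0.0112), but the call was lost with library size alone (-0.12, adjusted p = 0.0767) and when iBRD9 replicate 3 was left out (-0.22, adjusted p = 0.0519). Vps26a had 140.3, 153 and 152 CPM with DMSO and 149, 151 and 155 CPM with iBRD9, with overlapping groups (0.030, SE 0.057, adjusted p = 0.659). It was -0.018, adjusted p = 0.710 without DMSO replicate 1, and passed as higher with library size alone (0.14, adjusted p = 0.0377).

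Ratios of 2 genes within a library do not depend on how libraries are scaled. For 6 pairs, 5 of them paralogs and Hps4/Hps1 the subunits of BLOC-3, the log2 ratio of counts was compared between groups. The exact permutation test (two-sided) gave p = 0.1 for each pair, the smallest that 3 against 3 libraries allow. After Benjamini-Hochberg adjustment over the 6 it was 0.1, so none passed. In all 6 the groups did not overlap. As single genes, 68.0% of all tested genes did not overlap, and no such share was computed for ratios of other gene pairs. The lack of overlap therefore does not show a trait of these pairs. Hps4/Hps1 differed most, by -1.29 on the log2 scale. Vps33b/Vps33a differed by 1.13, with ratios of 0.134, 0.0718 and 0.0699 with DMSO and 0.209, 0.178 and 0.190 with iBRD9. Ap3m2/Ap3m1 differed by 1.08, with ratios of 0.0651, 0.0716 and 0.0806 with DMSO and 0.151, 0.150 and 0.158 with iBRD9. These differences are 2.20-fold and 2.12-fold changes of the count ratio of the less abundant to the more abundant paralog. Smaller differences were found for Ap1s2/Ap1s1 (0.40), Ap3s2/Ap3s1 (-0.32) and Vps26b/Vps26a (-0.24). The retromer paralog gene Vps26b itself had 78.7, 83.5 and 79.9 CPM with DMSO and 67.4, 70.9 and 70.7 CPM with iBRD9 and fell (-0.21, adjusted p = 0.0127).

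**Figure D3:**
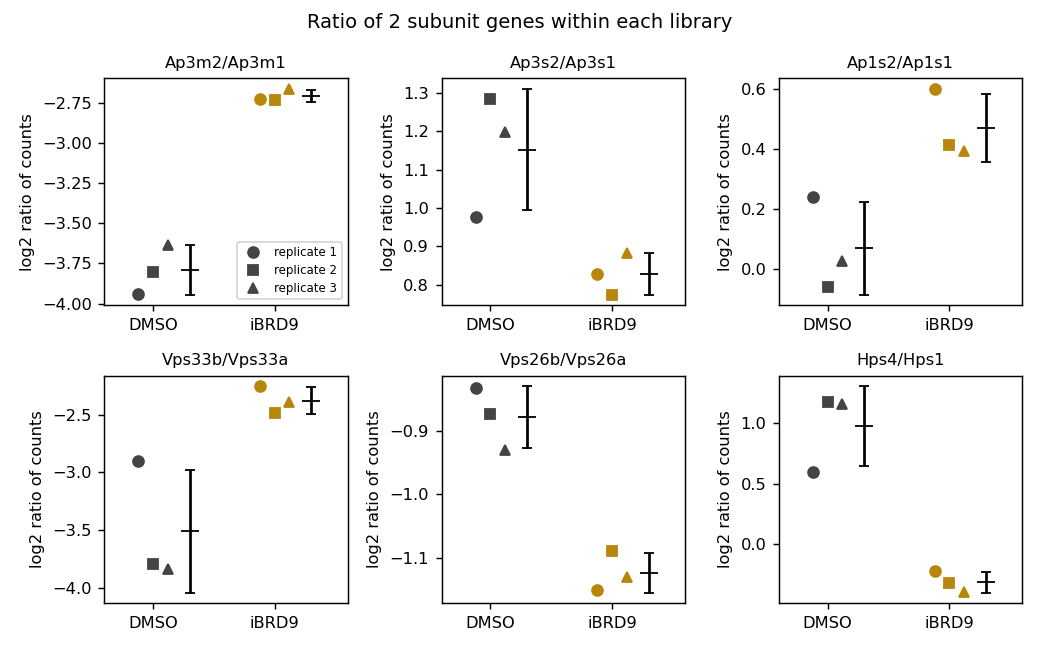
Log2 ratio of the counts of 2 subunit genes in each library, with the mean and SD of each group of 3 beside the points (vertical axes differ between panels and do not start at 0). In Hps4/Hps1 the ratio crosses 0, from above in all DMSO libraries to below in all iBRD9 libraries, and no panel shows overlapping groups.

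DMSO replicate 1, which stood apart over all tested genes, bore on many of the members. Its position was not counted over all tested genes, so the counts of its position below do not show a trait of the members. It lay outside the range of DMSO replicates 2 and 3 in 29 of the 35, and in 20 of the 24 called members it was displaced from them toward the iBRD9 mean. The median over all 24, including the 4 displaced the other way (Hps1, Ap3m1, Ap3m2 and Lyst), was 0.482 of the way on the log2 scale. It was the DMSO library nearest to the iBRD9 mean in 18 of the 24. Without it, 8 members rose and 19 fell, where 74.0% of all tested genes were called, 37.0% higher and 37.0% lower. All 24 calls were also made without it, and Ap1s2, Bloc1s4 and Vps35 were added. The change was larger in size without it in the same 20 of the 24, which follows from that displacement and is not a separate result. The SD over the mean had a median of 7.73% of the level over members with DMSO and 2.53% with iBRD9.

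**Figure D4:**
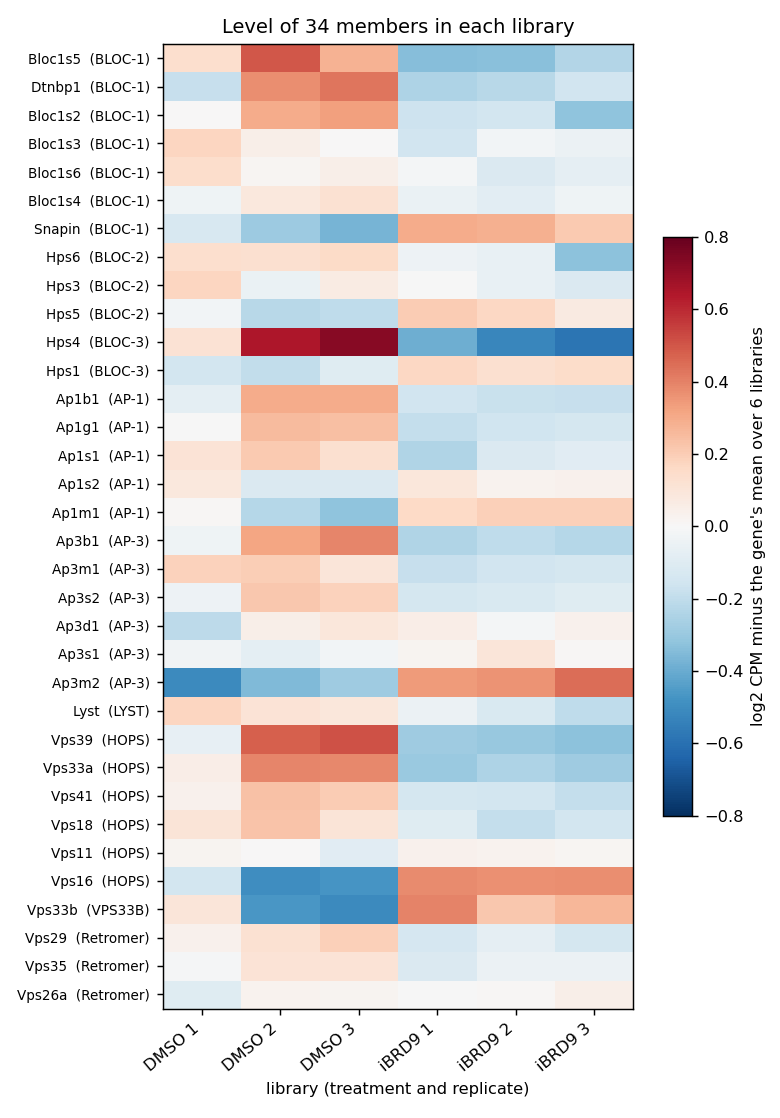
Level of 34 members (Bloc1s1 is left out for its low counts) in each of the 6 libraries, as log2 CPM minus the gene's mean over the libraries, with genes grouped by complex. The DMSO 1 column is paler than DMSO 2 and DMSO 3 for Hps4, Vps39, Vps33a and Vps16, and Dtnbp1 has the color of the iBRD9 libraries there.

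**Figure D5:**
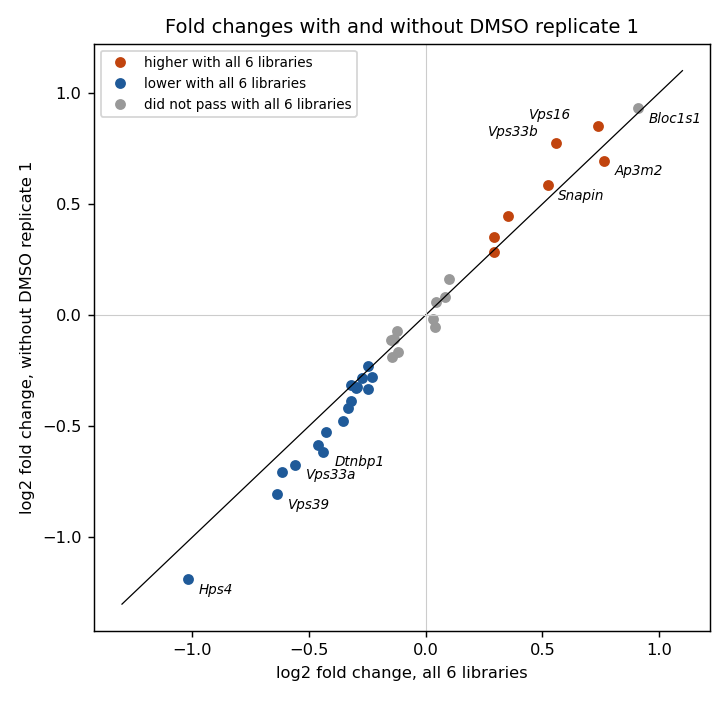
Log2 fold change of each member with all 6 libraries (horizontal) and without DMSO replicate 1 (vertical), with the line of equal values. Of the 24 called members, the 20 in which DMSO replicate 1 was displaced toward iBRD9 lie farther from 0 on the vertical axis. Hps4 moved from -1.02 to -1.19 and Ap3m2 from 0.76 to 0.70.

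Genes that work with these complexes were described from 9 lists with 111 tested members. Of these, 55 fell (49.5%), 15 rose (13.5%) and 41 did not pass (median -0.21), where 30.9% of all tested genes fell and 29.8% rose. Called in either direction were 63.1% of the partner genes, near the 60.7% of all tested genes. By list the share called ran from 33.3% (other AP-1 and AP-3 subunits) to 88.9% (RAB partners). The counts by list below were not tested against the share of all tested genes. Of the other AP-1 and AP-3 subunits, 1 of 3 rose, Ap1s3 (0.40), with 2 rising without DMSO replicate 1 and Ap1s3 not passing without DMSO replicate 2. Of 13 AP-2, AP-4 and AP-5 genes 7 fell and 6 did not pass, with the small subunit genes Ap4s1 (-0.73) and Ap5s1 (-0.70) lowest; 2 rose without DMSO replicate 1. Of 17 genes for clathrin, GGA adaptors and ARF recruitment 4 rose, led by Gga3 (0.44) and the AP-1 regulator Ap1ar (0.40). Another 5 fell, with the clathrin adaptor gene Aftph (-0.60) and Arf6 (-0.48) in front, and 8 fell without DMSO replicate 1. In the fit without that library, 37.0% of all tested genes fell and 37.0% rose. Calls added there in this and the other partner lists therefore do not show a trait of a list.

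Of 8 BORC, CORVET and VPS33B partner genes 5 fell, with Borcs5 (-0.58) and Vipas39 in front, and 3 did not pass. In the group of sorting nexins, WASH and other retromer partners 9 of 15 fell and 3 rose. The endosomal actin regulator Washc5 fell from 596 ± 69.4 to 329.5 ± 4.76 CPM (-0.86) and the sorting nexin gene Snx1 from 121 ± 12.3 to 72.4 ± 3.17 CPM (-0.74), while Snx2 (0.30) and Washc4 (0.22) rose; 1 rose without DMSO replicate 2, without DMSO replicate 3 or without iBRD9 replicate 2. The ESCRT genes, which form intralumenal vesicles, had 11 of 20 lower and 9 that did not pass, with Mvb12a (-0.89) and Chmp6 (-0.82) in front, and 2 rose without DMSO replicate 1. Of 14 endosomal and lysosomal SNARE genes 5 fell and 3 rose, among them Vamp8 (-0.85) and Snap29 (-0.61) down and Snap23 (0.45) and Stx16 (0.37) up, and 8 fell without DMSO replicate 1.

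Of 9 tested RAB genes, 6 fell and 2 rose, Rab5b (0.40) and Rab11b (0.35). Among 12 melanosome cargo genes 7 fell and 2 rose. The enzyme gene Tyr fell from 537 ± 14.5 to 87.7 ± 3.71 CPM (-2.61) and the ion exchanger gene Slc24a5 from 148 ± 12.3 to 44.97 ± 0.751 CPM (-1.72), with Mfsd12 (0.59) and Dct (0.31) higher. Against a median of -0.51 for the cargo list, the 35 sorting genes had -0.15; this is a description of the 2 lists, and their difference was not tested.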

How the data were processed

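RNA-seq was measured in 6 Melb-a samples, 3 with DMSO and 3 with iBRD9. The authors deposited 1 table of unnormalized read counts by gene ID. Per the labels' protocols, polyadenylated RNA was primed with random hexamers for the NEBNext Ultra kit. The submitters' processing notes list CASAVA 1.8.2, Bowtie2 2.4.5 and GRCm39, while how reads were assigned to genes, from which annotation and with which strand setting, is not given in the sources used here. Symbols came from the given gene name table (34490 of 35275 IDs), and the IDs without one held 0.0899% of counts. All columns were used.

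Genes were kept by filterByExpr (minimum count 10), scaled by TMM and tested with the edgeR 4.0.16 quasi-likelihood F-test (robust, treatment alone, R 4.3.3), with Benjamini-Hochberg adjustment over all 13602 tested genes and calls at an adjusted p under 0.05. The SE is the log2 fold change divided by the square root of F; CPM are means ± SD of 3 libraries, and precision at this depth rests on a biological coefficient of variation of 0.0921. The procedure was tested on simulated data. It recovered 92.8% of 97 genes changed 2-fold and 76.3% of 93 genes changed 1.5-fold, and 6.94% of 173 calls fell on unchanged genes. The simulation gave all genes the same dispersion, held no deviant library and had a far smaller share of changed genes. Its rates therefore need not hold for these data. No replicate pair was a duplicate (chi-square per degree of freedom 1.93 to 37.5).

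The members and lists were chosen with earlier results of these data known. Values in every library are given for called members with a log2 change of at least 0.5, the ratio genes, and the largest change in each complex; the partner genes named are up to 2 higher and 2 lower calls a list, at a mean log2 CPM of at least 1. Ratios used scipy 1.17.1 and figures matplotlib 3.10.9. Alternatives were DESeq2 size factors, library size alone, DESeq2 1.42.0, limma-voom (limma 3.58.1), other filters, leaving out each library, a replicate block and a threshold of 0.01. GENCODE M21 and RefSeq GRCm38.p6 are of an older build and served for exon lengths, overlaps and promoters.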

Additional observations from a re-analysis of the deposited data

How the results depend on the processing

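With each library left out in turn, 6 to 8 members rose and 13 to 19 fell, while 6865 to 10311 of all tested genes were called (3235 to 5159 higher, 3558 to 5152 lower). Of the 24 called members, 17 were called in the same direction in all 13 alternative fits. The exceptions were Hps6, Dtnbp1, Ap3s2, Vps29, Vps33b, Ap1b1 and Lyst. Without DMSO replicate 1 the values of Ap3d1 (-0.055) and Vps26a (-0.018) changed sign; neither passed with all libraries, and leaving out each library in turn gave -0.055 to 0.092 and -0.018 to 0.046. Library size alone moved all log2 fold changes up by a median of 0.105, and gave 10 members higher and 12 lower, and 4995 genes higher and 3388 lower (59.6% of calls higher, against 49.1%). At an adjusted p under 0.01, 6 members rose and 12 fell, and 2834 of all 13602 tested genes rose and 3238 fell.

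The labels do not say that a replicate number marks a shared day or batch, so the numbers were not taken as pairs. Same-numbered DMSO and iBRD9 libraries had correlations of deviations of 0.118, 0.0599 and 0.0248. Those of libraries with different numbers were -0.0996 to 0.0469, so a weak pairing is not excluded. With the replicate block, 7 members rose and 16 fell, of 7937 genes called, and Hps6 was the member that lost its call. For the ratios, sign flips within numbers can give no p below 0.25. The differences kept their sign without any 1 library, at -1.48 to -1.19 for Hps4/Hps1, 0.97 to 1.44 for Vps33b/Vps33a and 1.01 to 1.16 for Ap3m2/Ap3m1. Counting error was largest for Bloc1s1, at 3 to 20 counts a library.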
